A study of Mus musculus with 8 samples.

Results

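Calcium sensitisation is the part of smooth muscle contraction that runs through the small GTPase RhoA and the phosphatase that relaxes myosin. The genes described here are 10 of its core members: Rhoa, the kinase genes Rock1 and Rock2, the myosin phosphatase genes Ppp1cb, Ppp1r12a and Ppp1r12b, the phosphatase inhibitor gene Ppp1r14a, and the RhoA exchange factor genes Arhgef1, Arhgef11 and Arhgef12. They were chosen by name out of 21368 genes named on the array, and every non-control probe whose identifier is a RefSeq transcript of one of them was taken. This gave 16 probes, covering all 10 genes, out of 55681 non-control probes. Of the genes, 6 had 2 probes each and 4 had a single probe. A probe was tested if at least 4 arrays showed it well above background, which 15 of the 16 probes passed, and every gene retained at least 1.

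The samples were thoracic aortae of Fto -/- mice (4 arrays) and of Fto +/+ mice (4 arrays), all labelled male and of a C57BL6J/NMRI background. Fto encodes an RNA demethylase that acts on methylated adenosine, and the study asked how its loss alters expression in the vessel wall. The sources used here do not give the age of the mice or how the Fto allele was made. Nothing in the labels says that each sample was a separate mouse, so p-values reflect sample spread alone, which may be technical.

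A vessel wall contracts when myosin light chains are phosphorylated by a calcium-dependent kinase, and relaxes when myosin phosphatase removes the phosphate. Receptors for vasoconstrictors act through G proteins on exchange factors, which load RhoA with GTP. RhoA then switches on its kinases, which phosphorylate the targeting subunit of myosin phosphatase and so hold the phosphatase back, while the inhibitor encoded by Ppp1r14a does the same once it is itself phosphorylated. The vessel thereby keeps its tone at an unchanged calcium level.

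The promoters of 4 starts are shown first, credited to RefSeq on build GRCm38.p6. Rhoa is given because it has 2 annotated starts and its 2 probes gave differences of opposite sign. Ppp1r14a and Ppp1cb are given as the inhibitor and the catalytic subunit of the phosphatase. Each window is 300 bases long, lies mostly upstream of the start and is written on the gene's own strand. Capitals mark every match, on either strand and with overlapping matches counted, to the GC box GGGCGG, to the box written CCAAT, to the sequence TATAAA, or to the CArG box, which serum response factor binds in muscle genes.
Rhoa first start, chr9:108305910-108306209, plus strand: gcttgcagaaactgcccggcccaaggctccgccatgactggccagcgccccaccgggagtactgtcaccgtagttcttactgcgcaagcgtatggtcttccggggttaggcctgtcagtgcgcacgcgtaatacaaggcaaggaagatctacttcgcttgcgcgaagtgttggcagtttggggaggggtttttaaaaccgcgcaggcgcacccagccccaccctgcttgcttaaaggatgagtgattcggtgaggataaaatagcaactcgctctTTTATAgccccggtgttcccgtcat
Rhoa second start, chr9:108306547-108306846, plus strand: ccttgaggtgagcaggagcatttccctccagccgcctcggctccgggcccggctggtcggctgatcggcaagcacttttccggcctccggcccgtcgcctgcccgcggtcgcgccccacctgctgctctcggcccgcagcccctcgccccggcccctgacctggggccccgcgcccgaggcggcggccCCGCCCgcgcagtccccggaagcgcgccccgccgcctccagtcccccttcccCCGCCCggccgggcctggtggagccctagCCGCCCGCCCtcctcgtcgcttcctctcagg
Ppp1r14a, chr7:29289070-29289369, plus strand: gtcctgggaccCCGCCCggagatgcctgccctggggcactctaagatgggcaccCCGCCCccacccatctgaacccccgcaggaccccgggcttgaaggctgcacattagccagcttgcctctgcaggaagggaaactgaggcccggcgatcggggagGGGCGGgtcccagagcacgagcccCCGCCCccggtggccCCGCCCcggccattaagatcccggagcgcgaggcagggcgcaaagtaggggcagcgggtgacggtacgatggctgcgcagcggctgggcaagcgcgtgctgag
Ppp1cb, chr5:32458720-32459019, plus strand: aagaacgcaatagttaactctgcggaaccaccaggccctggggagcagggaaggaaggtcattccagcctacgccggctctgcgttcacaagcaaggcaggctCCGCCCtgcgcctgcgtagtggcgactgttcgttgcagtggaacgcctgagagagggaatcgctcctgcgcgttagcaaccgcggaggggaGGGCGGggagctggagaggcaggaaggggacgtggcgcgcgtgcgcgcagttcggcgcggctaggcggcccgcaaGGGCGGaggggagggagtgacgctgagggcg

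The 2 Rhoa windows differ in composition. The first start held 1 TATAAA match, no GGGCGG and a GC content of 56.67%. That match lies on the opposite strand, near the window's end and downstream of the start. The second start held 4 GGGCGG matches, no TATAAA and a GC content of 78.67%. The Ppp1r14a window held 5 GGGCGG matches and the Ppp1cb window 3. The reference gave 12 windows for 9 of the 10 genes. GGGCGG was found in 10 of those 12 and in 35.66% of all 32851 windows of the same length. TATAAA was found in 1 of the 12, against 13.62% of all windows, and CCAAT in 1 of the 12, against 37.41%. The CArG box was found in 0 of the 12 and in 1.63% of all windows. A match is a run of letters and not a measured binding site, and its absence from this window says nothing of sites elsewhere.

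Signal was read with a single dye on 1 array per sample. A level is the log2 intensity of a probe relative to the 75th percentile of its array, and that percentile lay between 294.9 and 374.4 on Fto -/- arrays and between 320.2 and 415.6 on Fto +/+ arrays. A difference is Fto -/- minus Fto +/+ on the log2 scale, and a probe was called where its limma p, adjusted over all 25292 tested probes, lay below 0.05. The Fto probe checked the labels. Its level was -2.53, -2.19, -2.56 and -2.77 in Fto -/- and 0.60, 0.85, 0.47 and 0.35 in Fto +/+ samples, a difference of -3.08 ± 0.15 (SE; limma adjusted p = 0.000403; exact two-sided permutation p = 0.0286, the smallest that 4 against 4 allows). The genotypes did not overlap, and this followed titles and genotype fields, whereas each sample's description field names the other genotype. Both Xist probes were well above background on all 8 arrays, and of 6 probes for 5 Y-linked genes 1, for Uty, was above background on 1 array (Fto +/+ replicate 3), against the label male.

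The vessel markers were present: all 9 smooth muscle markers were well above background on all 8 arrays. Averaged over the list after centring each gene, they lay between -0.18 and 0.06 on Fto -/- arrays and between 0.01 and 0.22 on Fto +/+ arrays, which overlap. None of the 9 was called in limma, against 1.66% of all tested probes. An unadjusted p under 0.05 was found for 4, against 19% of all tested probes. Of these, 3 were lower on every Fto -/- array than on any Fto +/+ array, against 7.36% of all tested probes. These were Lmod1 (a difference of -0.78), Synpo2 (-0.46) and Cnn1 (-0.32), and Des differed by 0.41. Their part in the differences given further on was not tested. In bulk tissue, fewer cells of a type and less RNA per cell cannot be told apart. Markers of neighbouring tissues varied more than that. Of 7 brown adipocyte markers 6 were tested, and their level lay between -0.31 and 1.70 on Fto -/- arrays and between -1.54 and -0.05 on Fto +/+ arrays. Of 12 thymocyte and T cell markers 9 were tested, and their level lay between -1.33 and 1.87 on Fto -/- arrays and between -1.80 and 1.68 on Fto +/+ arrays. The defining thymocyte gene Rag1 was well above background, by its brighter probe, on Fto -/- replicates 1, 3 and 4 and on Fto +/+ replicate 2. Rag2, Themis and Ptcra did not pass the filter. 

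**Figure D1:**
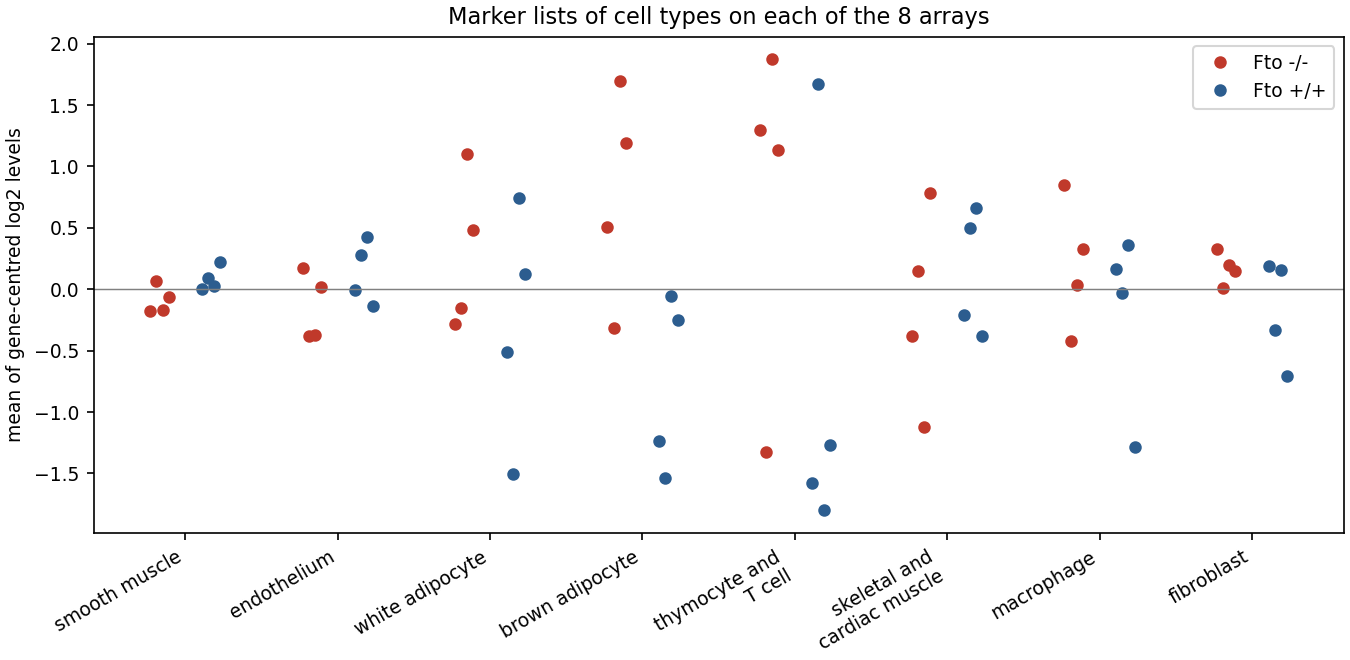
Mean gene-centred log2 level of each cell type marker list on each array (points; Fto -/- left of Fto +/+ within each list). Brown adipocyte levels reached 1.70 in Fto -/- and -0.05 in Fto +/+ arrays at their highest, while smooth muscle levels stayed within -0.18 and 0.22 on all 8 arrays.

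None of the 10 genes passed the threshold in the aortae lacking Fto. In limma, 0 of the 15 tested probes were called, against 1.66% of all tested probes (0.814% lower and 0.842% higher), with adjusted p values from 0.0864 to 0.959. At an unadjusted p under 0.05 stood 9 of the 15, of which 8 were lower and 1 was higher in Fto -/-, against 19% of all tested probes, 10.3% lower and 8.72% higher. The fitted difference was below 0 for 10 of the 15, against 52.5% of all tested probes. Every Fto -/- array lay below every Fto +/+ array for 5 of the 15 probes, against 7.36% of all tested probes. These 5 belong to Arhgef11, Arhgef12, Rhoa, Rock1 and Ppp1cb. In 0 of the 15 did every Fto -/- array lie above every Fto +/+ array, against 4.75% of all tested probes. The median difference over the 15 probes was -0.20, beside -0.02 over all tested probes, and the differences ran from -0.50 to 0.36. Probes of 1 gene are not independent, and the genes were chosen with earlier results of these arrays known, so these shares describe the 15 probes only.

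**Figure D2:**
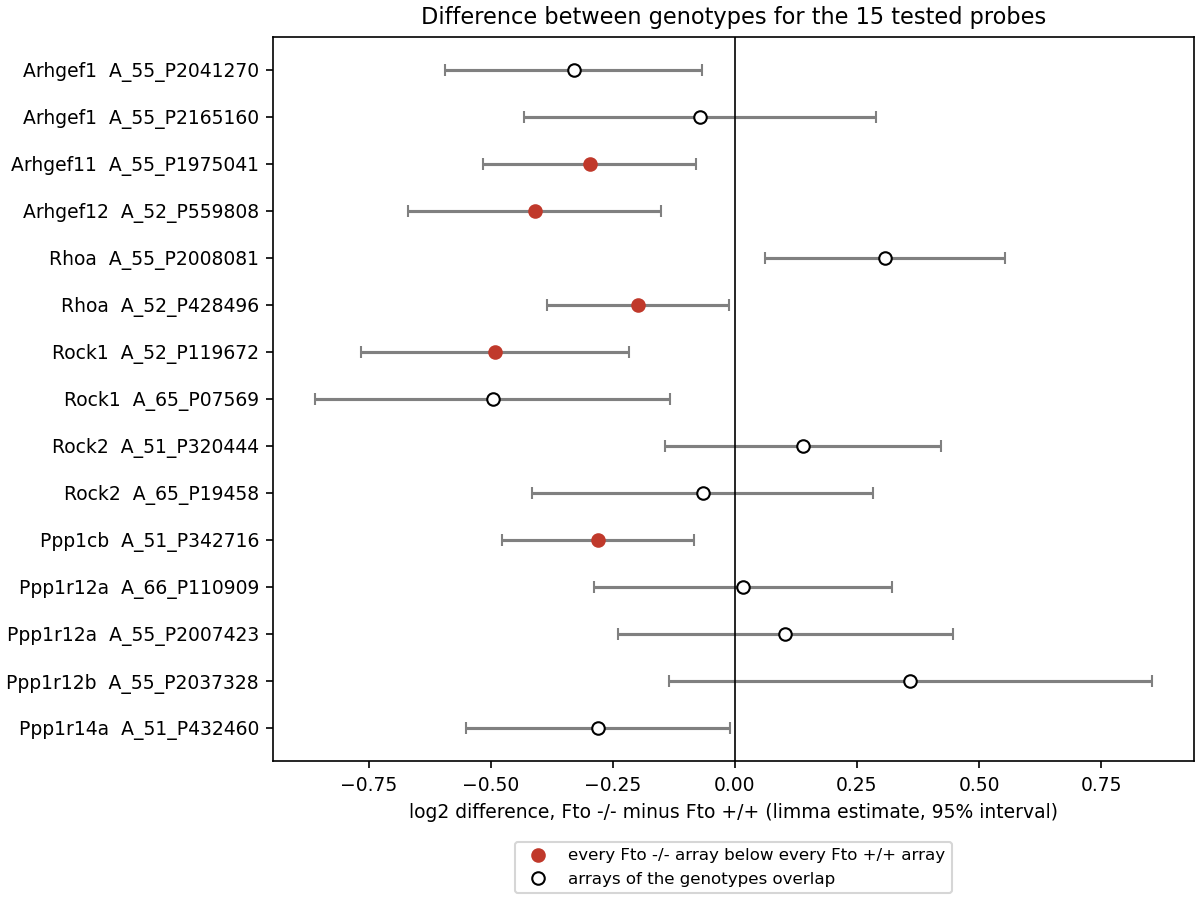
Fitted log2 difference, Fto -/- minus Fto +/+, with its 95% interval for each of the 15 tested probes, exchange factors at the top and the phosphatase inhibitor at the bottom. Filled points are the 5 probes whose genotypes did not overlap, all below 0, from -0.49 (Rock1) to -0.20 (Rhoa).

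The exchange factors stand at the head of the pathway. Arhgef12 encodes LARG, which couples receptors to RhoA through the G12 family of G proteins. Its single probe (A_52_P559808) read 3.57, 3.68, 3.28 and 3.49 in Fto -/- and 3.88, 4.07, 3.91 and 3.79 in Fto +/+ aortae. All 4 Fto -/- arrays were lower than any Fto +/+ array, the highest of them being replicate 2 and the lowest Fto +/+ array replicate 4. The means were 3.50 ± 0.17 in Fto -/- and 3.91 ± 0.12 in Fto +/+ aortae (SD, n = 4 each), a difference of -0.41 ± 0.11 (SE; 95% interval -0.67 to -0.15; limma adjusted p = 0.11), and the call was not reached. On the linear scale this is 1.33-fold lower.

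Arhgef11 encodes a close relative of LARG. Its probe (A_55_P1975041) read -0.29, -0.03, -0.10 and -0.08 in Fto -/- and 0.19, 0.28, 0.11 and 0.09 in Fto +/+ aortae. Here too the genotypes did not overlap, and Fto -/- replicate 1 was the lowest array. The difference was -0.30 ± 0.10 (SE; 95% interval -0.52 to -0.08; limma adjusted p = 0.152).

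Arhgef1, the third of these exchange factors, abundant in blood cells as well as in vessels, has 2 probes on 1 transcript. The brighter (A_55_P2041270) read 3.96, 4.21, 3.80 and 3.82 in Fto -/- and 4.17, 4.37, 4.22 and 4.36 in Fto +/+ aortae. In 3 of the 4 Fto -/- arrays it was below all Fto +/+ arrays, and replicate 2 lay among them. The difference was -0.33 ± 0.12 (SE; 95% interval -0.59 to -0.07; limma adjusted p = 0.18). The dimmer probe (A_55_P2165160) read 0.05, 0.16, -0.02 and -0.27 in Fto -/- and -0.06, -0.06, -0.15 and 0.47 in Fto +/+ aortae, which overlapped throughout. Its difference was -0.07 ± 0.16 (SE; 95% interval -0.43 to 0.29), and its high value in Fto +/+ replicate 4 stood well apart from the other 3.

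RhoA itself is the switch of the pathway, active when bound to GTP. Both Rhoa probes are assigned to the same transcript (NM_016802), and they differed in opposite directions. The brighter (A_55_P2008081) read 5.30, 5.18, 5.29 and 5.20 in Fto -/- and 4.85, 4.80, 4.91 and 5.19 in Fto +/+ aortae. It was higher in Fto -/-, except that Fto +/+ replicate 4 reached the Fto -/- range. The difference was 0.31 ± 0.11 (SE; 95% interval 0.06 to 0.55; limma adjusted p = 0.18).

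The dimmer Rhoa probe (A_52_P428496) read 3.06, 2.93, 2.99 and 3.05 in Fto -/- and 3.24, 3.23, 3.22 and 3.12 in Fto +/+ aortae. Every Fto -/- array was lower, and the lowest Fto +/+ array was again replicate 4. The difference was -0.20 ± 0.08 (SE; 95% interval -0.39 to -0.01; limma adjusted p = 0.24). Neither probe was called. The sources used here do not give the positions of the probes on the transcript.

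A difference between 2 probes within an array does not depend on how that array was scaled, so it was compared between genotypes for the 5 genes with 2 tested probes, a comparison added after the values were seen. For Rhoa, brighter minus dimmer was 2.24, 2.25, 2.31 and 2.15 in Fto -/- and 1.61, 1.56, 1.69 and 2.06 in Fto +/+ arrays. All 4 Fto -/- arrays were higher than any Fto +/+ array. The means were 2.24 ± 0.06 in Fto -/- and 1.73 ± 0.23 in Fto +/+ (SD, n = 4 each), which differ by 0.51. Exact permutation gave a two-sided p of 0.0286, the least that 4 arrays a genotype allow, and 0.143 after adjustment over the 5 genes, so it did not pass. Over the array, 2499 transcripts had exactly 2 tested probes, and 7.68% of them showed no overlap of this kind. In 0.36% of those transcripts, Rhoa among them, both probes had an unadjusted limma p under 0.05 in opposite directions.

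In the other 4 genes the genotypes overlapped. The contrast between genotypes was -0.26 for Arhgef1, -0.21 for Rock2, -0.09 for Ppp1r12a and 0.01 for Rock1, with exact permutation p values of 0.143, 0.0857, 0.4 and 0.971 before adjustment. The Rock1 probes thus kept nearly the same distance in both genotypes.

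**Figure D3:**
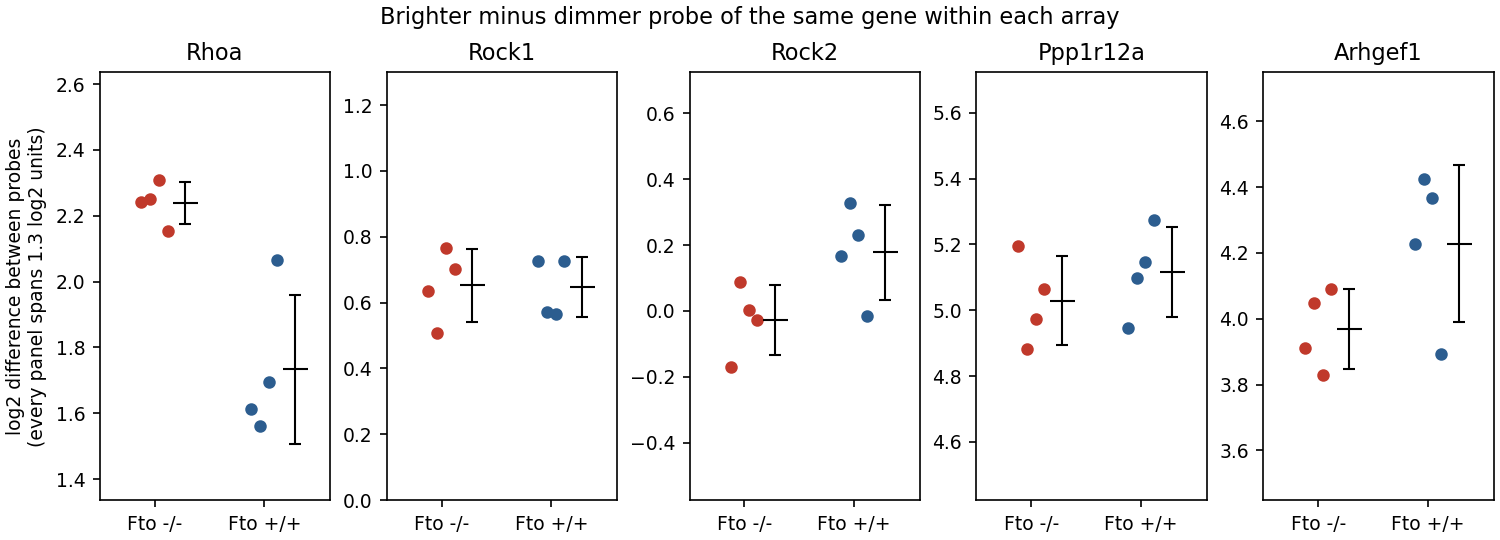
Brighter minus dimmer probe of the same gene within each array, in log2 units, for the 5 genes with 2 tested probes (points are arrays; bars are mean ± SD, n = 4 per genotype). The Rhoa values lie between 2.15 and 2.31 in Fto -/- and between 1.56 and 2.06 in Fto +/+ arrays, and the other genes overlap.

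Rock1 and Rock2 encode the kinases that act on the phosphatase below RhoA. Rock1 had the smallest p of the 10 genes. Its brighter probe (A_52_P119672) read 2.43, 2.62, 2.34 and 2.21 in Fto -/- and 3.01, 2.96, 2.91 and 2.68 in Fto +/+ aortae. The genotypes did not overlap, although Fto -/- replicate 2 and Fto +/+ replicate 4 came close. The means were 2.40 ± 0.17 in Fto -/- and 2.89 ± 0.14 in Fto +/+ (SD, n = 4 each), a difference of -0.49 ± 0.12 (SE; 95% interval -0.77 to -0.22), or 1.40-fold lower. The limma adjusted p was 0.0864.

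The dimmer Rock1 probe (A_65_P07569) read 1.79, 2.12, 1.57 and 1.51 in Fto -/- and 2.28, 2.39, 2.34 and 1.96 in Fto +/+ aortae. The same 2 arrays, Fto -/- replicate 2 and Fto +/+ replicate 4, crossed here. Its difference, -0.50 ± 0.16 (SE; limma adjusted p = 0.151), was close to that of the brighter probe. Without Fto +/+ replicate 4 the brighter probe passed, at -0.56 (limma adjusted p = 0.0478), in a fit that called 3.5% of all tested probes. In the other 7 fits without 1 array it did not, with adjusted p values from 0.0646 to 0.218. The brown adipocyte level was also fitted as a covariate, an alternative added once the data had been seen. The brighter probe then differed by -0.25 (limma adjusted p = 0.675) and the dimmer by -0.14. Brown level and genotype largely go together on these arrays, so that fit cannot fully separate them.

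The Rock2 arrays of both genotypes overlapped. One probe (A_51_P320444) read 2.06, 2.50, 2.07 and 2.03 in Fto -/- and 2.04, 1.95, 2.00 and 2.12 in Fto +/+ aortae, and the other (A_65_P19458) 1.89, 2.59, 2.07 and 2.00 in Fto -/- and 2.21, 2.28, 2.23 and 2.10 in Fto +/+ aortae. On both, Fto -/- replicate 2 was the highest array, and on A_65_P19458 the remaining 3 Fto -/- arrays lay below every Fto +/+ array. Without Fto -/- replicate 2 the differences were 0.03 for A_51_P320444 and -0.22 for A_65_P19458. Over all arrays the differences were 0.14 ± 0.12 (SE; 95% interval -0.14 to 0.42) and -0.07 ± 0.15 (SE; 95% interval -0.41 to 0.28), with limma adjusted p values of 0.571 and 0.847. Whether Rock1 and Rock2 differ in their response was not tested.

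Myosin phosphatase is a complex of a catalytic and a targeting subunit. Ppp1cb encodes the catalytic subunit. Its probe (A_51_P342716) read 5.10, 5.29, 5.15 and 5.19 in Fto -/- and 5.49, 5.54, 5.41 and 5.41 in Fto +/+ aortae. Every Fto -/- array was lower than every Fto +/+ array, with a tight spread in each genotype. The means were 5.18 ± 0.08 in Fto -/- and 5.46 ± 0.07 in Fto +/+ (SD, n = 4 each), a difference of -0.28 ± 0.09 (SE; 95% interval -0.48 to -0.08; limma adjusted p = 0.14).

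Ppp1r12a encodes the targeting subunit that brings the catalytic subunit to myosin and carries the sites phosphorylated by these kinases. The brighter probe (A_66_P110909) read 7.31, 7.68, 7.50 and 7.41 in Fto -/- and 7.29, 7.42, 7.35 and 7.77 in Fto +/+ aortae, and was not saturated on any array. The dimmer probe (A_55_P2007423) read 2.11, 2.80, 2.53 and 2.35 in Fto -/- and 2.34, 2.33, 2.21 and 2.50 in Fto +/+ aortae. The genotypes overlapped on both, though on the dimmer probe Fto -/- replicates 2 and 3 lay above every Fto +/+ array and replicate 1 below. The differences were 0.02 ± 0.13 (SE; 95% interval -0.29 to 0.32) and 0.10 ± 0.15 (SE; 95% interval -0.24 to 0.45). The intervals leave room for differences well beyond that size in either direction.

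Ppp1r12b encodes a related targeting subunit found mainly in heart and skeletal muscle. Both of its probes lay near background on some arrays. Its brighter probe (A_55_P2037328) was well above background on all 4 Fto -/- arrays and on 3 of the Fto +/+ arrays, and read -2.20, -1.76, -2.17 and -2.22 in Fto -/- and -2.63, -2.98, -2.10 and -2.08 in Fto +/+ aortae. The arrays overlapped, and the difference was 0.36 ± 0.22 (SE; limma adjusted p = 0.402). Without Fto +/+ replicate 2 it was 0.18, and with the brown adipocyte level as a covariate 0.17. The other probe (A_55_P2131747) was well above background on 0 of the 8 arrays, so no difference is given for it.

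Ppp1r14a encodes a small inhibitor of the catalytic subunit that is abundant in arterial smooth muscle. Its probe (A_51_P432460) read 6.05, 5.94, 6.05 and 6.10 in Fto -/- and 6.08, 6.36, 6.24 and 6.58 in Fto +/+ aortae. The Fto -/- arrays lay within a narrow range. In 3 of the 4 Fto -/- arrays it was below every Fto +/+ array, and Fto -/- replicate 4 lay just above Fto +/+ replicate 1. The means were 6.04 ± 0.07 in Fto -/- and 6.32 ± 0.21 in Fto +/+ (SD, n = 4 each), a difference of -0.28 ± 0.12 (SE; 95% interval -0.55 to -0.01; limma adjusted p = 0.248).

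**Figure D4:**
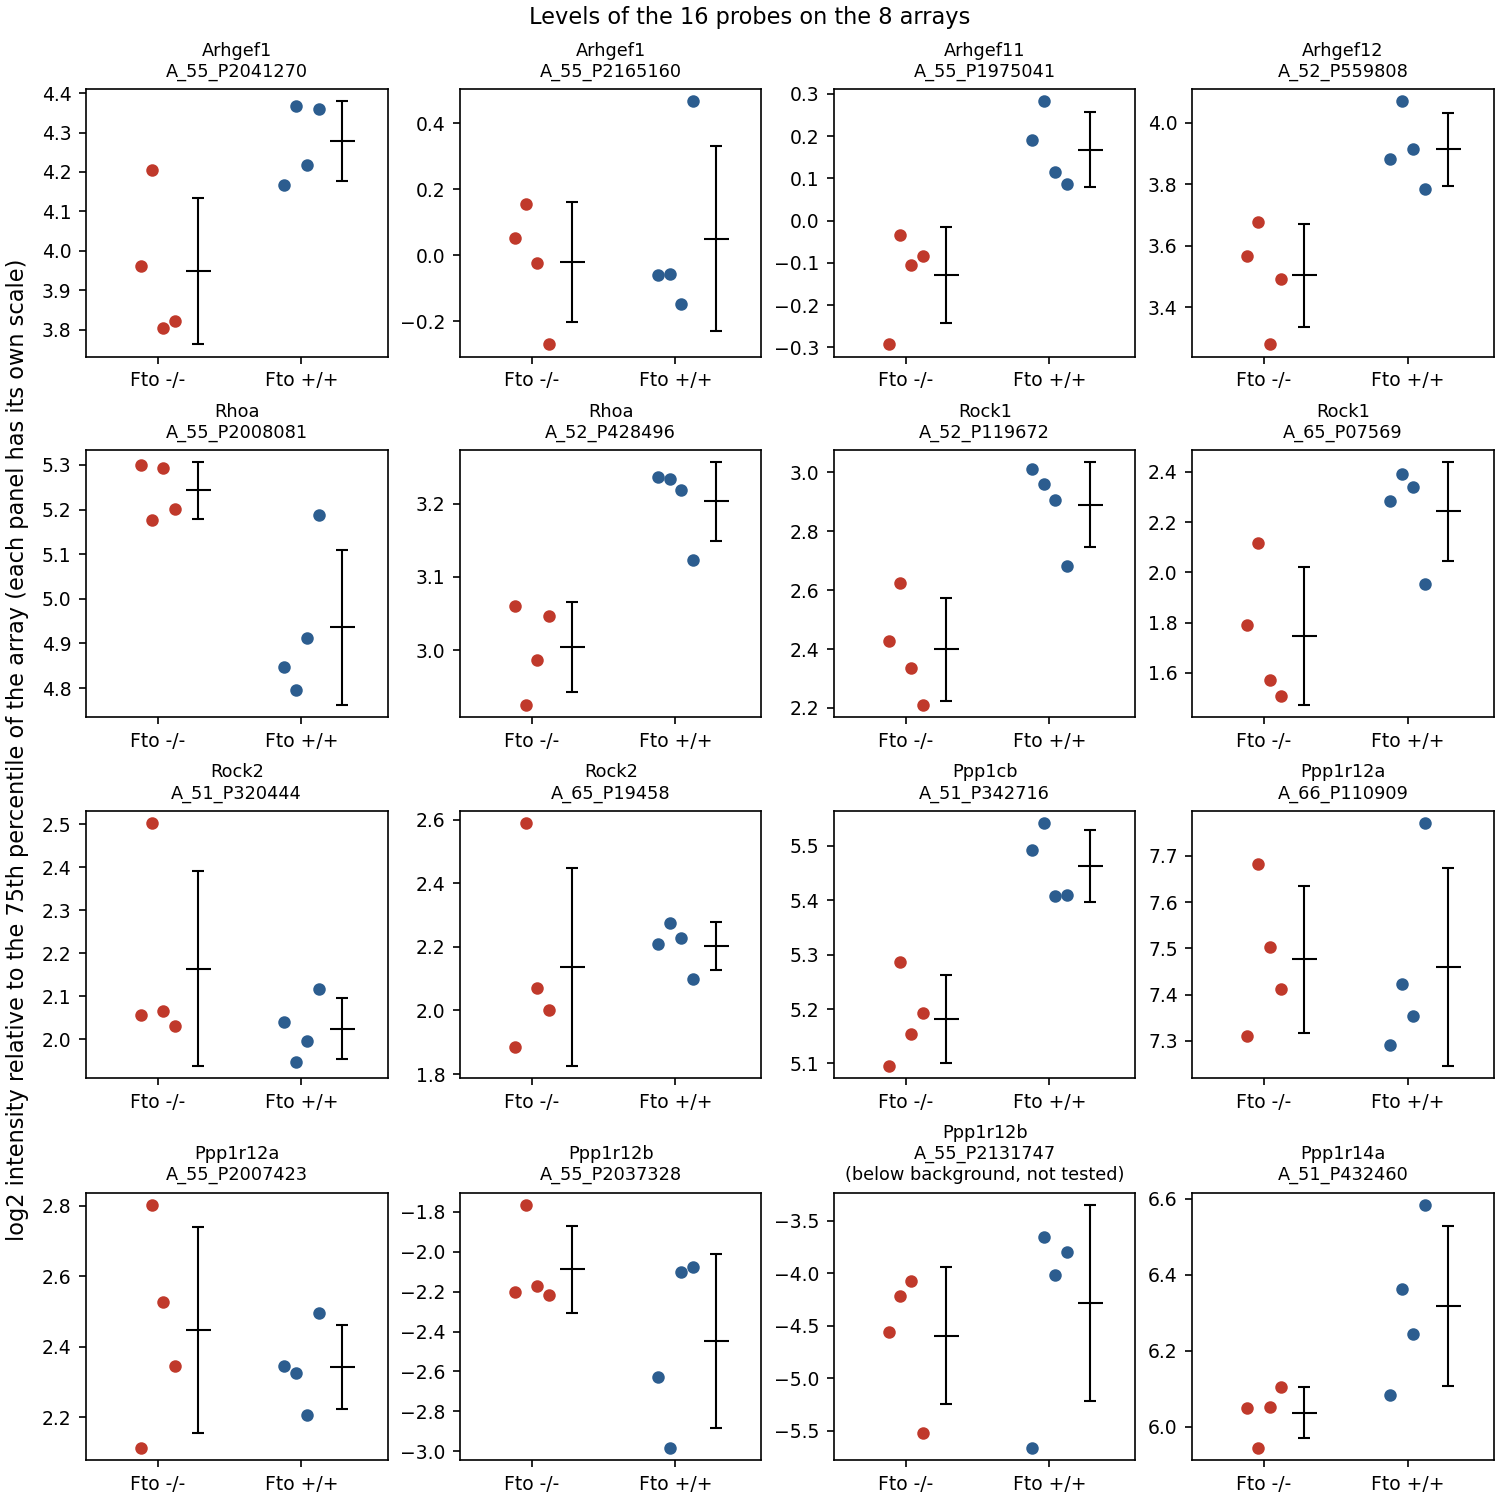
Level of each of the 16 probes, as log2 intensity relative to the 75th percentile of the array, on the 8 arrays (points; Fto -/- left, Fto +/+ right; bars are mean ± SD, n = 4 each; each panel has its own vertical scale). Levels of Rock1, Arhgef11, Arhgef12 and Ppp1cb are lower in Fto -/- with little or no overlap, the 2 Rhoa probes go opposite ways, and the genotypes overlap for Ppp1r12a.

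Fto -/- replicate 2 stood apart from the other Fto -/- arrays in several of these values. On Fto -/- replicate 2 the brown adipocyte level (-0.31) and the thymocyte level (-1.33) were the lowest of the 4 Fto -/- arrays, and the values of Rock1, Arhgef12, Arhgef1 (both probes), Arhgef11, Ppp1cb, Ppp1r12b, Ppp1r12a (both probes) and Rock2 (both probes) were the highest. Both Rhoa probes (5.18 and 2.93) and Ppp1r14a (5.94) were instead the lowest of the 4 there. The smooth muscle level of that array (0.06) was the highest of the 4. Among Fto +/+ arrays, replicate 2 had the lowest brown adipocyte level (-1.54) and the highest thymocyte level (1.68). It also had the highest Arhgef12, Arhgef11, Ppp1cb and dimmer Rock1 values. Fto +/+ replicate 4 had the highest smooth muscle level (0.22), with the lowest Fto +/+ values of Rock1 (both probes), Arhgef12 and Arhgef11. The part of these cell types was not tested.

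With the brown adipocyte level as a covariate, Arhgef12 differed by -0.18, the brighter Arhgef1 probe by -0.14, the brighter Rhoa probe by 0.17, Ppp1cb by -0.18 and Ppp1r14a by -0.40. In that fit 0 of the 15 probes had an unadjusted limma p under 0.05, against 9.13% of all tested probes. Brown level and genotype largely go together here, at -0.31 to 1.70 on Fto -/- and -1.54 to -0.05 on Fto +/+ arrays. The fit therefore cannot fully separate them, and the part of brown adipose tissue was not tested. Leaving out the 4 arrays with Rag1 keeps 1 Fto -/- against 3 Fto +/+ arrays. The lone array, Fto -/- replicate 2, is assumed to vary like the others. The Rock1 probes then differed by -0.24 and -0.08, Arhgef12 by -0.18, Arhgef11 by -0.16 and Ppp1cb by -0.15. The brighter Arhgef1 probe differed by -0.04 and the brighter Rhoa probe by 0.19. Other differences were larger in size than over all arrays. They were -0.36 for Ppp1r14a, -0.27 for the dimmer Rhoa probe and 0.50 for the brighter Ppp1r12b probe. For Rock2 they were 0.45 (A_51_P320444) and 0.41 (A_65_P19458), and for the brighter and dimmer Ppp1r12a probes 0.21 and 0.45. The dimmer Arhgef1 probe changed sign, to 0.07. Here too 0 of the 15 had an unadjusted p under 0.05, against 9.07% of all tested probes, so both counts lie near the background.

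Slide row was uneven between genotypes, with Fto -/- replicates 1, 2 and 3 and Fto +/+ replicate 1 in row 1, so that each row holds a genotype with 1 array. Within rows 1 and 2 the brighter Rock1 probe differed by -0.55 and -0.64, Arhgef12 by -0.37 and -0.43, and the brighter Rhoa probe by 0.41 and 0.24. The brighter Arhgef1 probe differed by -0.18 and -0.49, and Ppp1r14a by -0.07 and -0.29. When slide row was a block Ppp1r14a differed by -0.18, and with array weights by -0.16. With limma's array weights 5 of the 15 probes were called, both Rock1 probes (-0.61 and -0.66), Arhgef12 (-0.45), the brighter Rhoa probe (0.35) and Ppp1cb (-0.29), in a fit that called 8.12% of all tested probes.

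Beyond the 10 genes, 67 genes of the same pathway were listed in 8 groups, and 59 had a tested probe. For a gene with several, the probe of highest mean stood for it. Of the 59, 1 fell and 0 rose, or 1.69%, against 1.8% of all 13053 named genes tested (0.904% lower and 0.896% higher). At an unadjusted p under 0.05 stood 14 lower and 1 higher, against 12% lower and 8.69% higher of all named genes. The median difference was -0.15, beside -0.04 over all named genes.

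The gene that fell was Rnd1, which encodes a small GTP-binding protein that opposes RhoA signalling. Its brighter probe (A_51_P111164) read 0.72, 0.67, 0.56 and 0.64 in Fto -/- and 1.89, 1.49, 1.57 and 1.45 in Fto +/+ aortae. All 4 Fto -/- arrays lay far below all Fto +/+ arrays, with a spread of 0.06 (SD, n = 4) against 0.20 (SD, n = 4). It was 1.94-fold lower in Fto -/-, a difference of -0.95 ± 0.11 (SE; 95% interval -1.21 to -0.69; limma adjusted p = 0.0101). It passed in each of the 8 fits without 1 array (-1.003 to -0.859; adjusted p from 0.0153 to 0.0422) and when slide row was a block (-1.05; limma adjusted p = 0.0333). It missed the threshold with the brown adipocyte level as a covariate (-0.85, limma adjusted p = 0.202). The brown level itself largely follows genotype, at -0.31 to 1.70 on Fto -/- and -1.54 to -0.05 on Fto +/+ arrays. That fit cannot fully separate them. Without the arrays carrying Rag1, Rnd1 differed by -0.97, and within slide rows 1 and 2 by -1.24 and -0.86. These last 3 fits have 1 array in a genotype and called 0, 0 and 1 of all probes, and Fto itself missed the threshold in each, so missing it there says nothing of Rnd1. A second Rnd1 probe was well above background on 0 Fto -/- and 2 Fto +/+ arrays and was not tested.

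The other 5 tested genes of its group, small GTPases and their inhibitors, did not pass. Of the other exchange factors 0 of 10 were called and 4 had an unadjusted p under 0.05, all lower. Arhgef17, which encodes a further RhoA exchange factor, had the smallest p there, at 3.12, 3.80, 3.50 and 3.71 in Fto -/- and 4.06, 4.16, 3.96 and 4.22 in Fto +/+ aortae. The genotypes did not overlap, and the difference was -0.57 ± 0.15 (SE; limma adjusted p = 0.105). GTPase-activating proteins, which switch RhoA off, gave 0 calls among 5 tested and 2 lower at an unadjusted p under 0.05; Arhgap35 differed by -0.31 ± 0.10 (SE; adjusted p = 0.156). Upstream of the exchange factors, 0 of 3 G protein alpha subunit genes were called and 2 were lower at that level, with Gnaq, the Gq subunit gene, at -0.22 ± 0.08 (SE; adjusted p = 0.184).

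Among the other phosphatase subunits, partners and inhibitors 0 of 6 were called and 0 had an unadjusted p under 0.05. Mprip, whose product tethers RhoA and the phosphatase to actin, differed by -0.25 ± 0.12 (SE; adjusted p = 0.283), and its second probe by -0.32 ± 0.13 (SE; adjusted p = 0.247), with an unadjusted p of 0.0432. Of the kinases that act on the phosphatase or its inhibitor 0 of 9 were called and 3 were lower at an unadjusted p under 0.05. The integrin-linked kinase gene Ilk differed by -0.37 ± 0.12 (SE; adjusted p = 0.151). Among the myosin light chains, their kinase and calmodulin, 0 of 10 were called, with 1 lower and 1 higher at that level, and the light chain gene Myl6b differed by -0.45 ± 0.11 (SE; adjusted p = 0.0926).

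Of the effectors on actin and membrane, 0 of 10 were called and 1 was lower at an unadjusted p under 0.05. That gene, Cfl2, encodes the muscle cofilin that severs actin filaments. Its brighter probe read 3.33, 3.23, 3.34 and 3.23 in Fto -/- and 3.65, 3.67, 3.70 and 3.70 in Fto +/+ aortae. The genotypes stood apart with little spread in either, and the difference was -0.40 ± 0.08 (SE; limma adjusted p = 0.0504). A second Cfl2 probe gave -0.43 ± 0.09 (SE; adjusted p = 0.053).

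**Figure D5:**
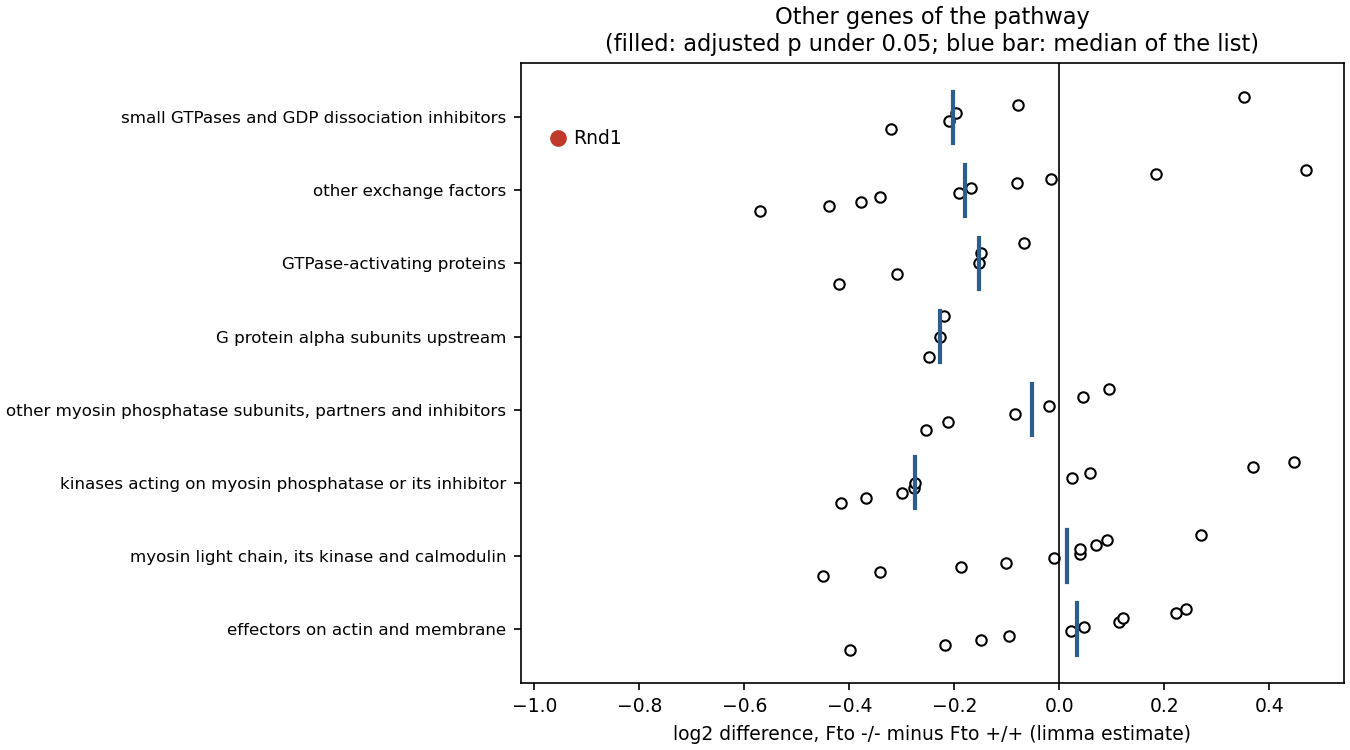
Fitted log2 difference, Fto -/- minus Fto +/+, of each tested gene in the 8 pathway groups (points; the vertical bar is the median of the group). Rnd1 at -0.95 is the 1 gene past the threshold, and group medians run from -0.27 to 0.03.

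Genes whose values followed those of Rhoa and Ppp1r14a most closely from array to array were taken after each was centred within its genotype. Among 11962 genes well above background on all 8 arrays, the closest to the brighter Rhoa probe were Cnfn, Mrps18b and Cert1. Their Pearson r over the 8 arrays was 0.987, 0.987 and 0.968. That Rhoa probe read 5.19 on Fto +/+ replicate 4, against 4.80 to 4.91 on the other Fto +/+ arrays. This array therefore weighs heavily in these r values. The closest to Ppp1r14a were Eml3, Ccdc85c and Slc25a28, with r of 0.977, 0.976 and 0.970. These are the highest of many values over few arrays that share 1 slide, given as a description.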

How the data were processed

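RNA of 8 thoracic aorta samples was hybridised to 1-colour Agilent mouse arrays, 1 per sample, annotated on mm9. The deposited intensity values were made with Agilent Feature Extraction 11.0.1.1, with background subtracted at each spot and no scaling across arrays, per the file headers. In the series table the deposited values are log2, centred per probe as the values show, and the sources used here do not state their normalisation. All arrays share 1 slide and 1 scan date. The number of arrays limits the precision.

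Control spots (3671 per array) and outlier spots (126 to 189) were left out and spots of a probe averaged. Levels are log2 intensity minus the 75th percentile of the array. Of all probes, 50.9% were named through unversioned RefSeq accessions (GRCm38.p6 table). The 25292 probes well above background on at least 4 arrays were fitted with limma 3.58.1 in R 4.3.3, with Benjamini-Hochberg adjustment; the fit was tested on simulated data. Single values were compared by exact permutation (scipy 1.17.1). Genes named are Fto, every probe of the 10 genes, pathway genes past the threshold or of smallest p in their group, the closest 3 genes to Rhoa and Ppp1r14a, and cell type markers. The genes and lists were chosen with earlier results of these data known. Normexp used median signals, since no mean signal column was used here. Replicate numbers were checked for pairing: same-numbered arrays deviated from their genotype means with correlations of 0.155, -0.024, -0.019 and -0.041, so they were not treated as pairs.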

Additional observations from a re-analysis of the deposited data

Results flagged for a closer look

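In 48 groups of 4 arrays (each probe in each genotype), 5 had 1 array whose gap to its nearest neighbour was past Dixon's 95% critical value as a share of the whole range, where chance gives about 1 in 20 groups. Fto +/+ replicate 4 accounted for 3 of them: the dimmer Rhoa probe, at 3.12 with the nearest array at 3.22, the dimmer Arhgef1 probe, at 0.47 with the nearest at -0.06, and Arhgap35, at 3.85 with the nearest at 3.98. Fto -/- replicate 2 accounted for the other 2: a Rock2 probe (A_51_P320444), at 2.50 with the nearest array at 2.07, and the brighter Ppp1r12b probe, at -1.76 with the nearest at -2.17.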

How the results depend on the processing

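Of 314 values of the 15 tested probes under the alternatives, 295 kept direction and side of the threshold, 6 passed it and 13 changed sign. The 6 are the 5 calls with array weights and Rock1 without Fto +/+ replicate 4. The sign changes concern 4 probes with differences near 0, and the cause was not tested. For the brighter Rock2 probe (A_65_P19458) the difference was 0.41 without the Rag1 arrays, 0.19 with the brown adipocyte covariate and -0.22 to 0.0177 without 1 array. The brighter Ppp1r12a probe gave -0.10 within slide row 2, -0.0155 with normexp and -0.0522 to 0.12 without 1 array, and the dimmer one -0.0146 to 0.21 without 1 array. The dimmer Arhgef1 probe gave 0.0703 without the Rag1 arrays, 0.12 within slide row 1 and -0.14 to 0.0671 without 1 array. The contrast between Rhoa probes was 0.45 to 0.62 without 1 array, with an exact permutation p of 0.0571, the smallest that 3 against 4 allows, and that between Rock1 probes -0.0323 to 0.0535.

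Calls among the 15 probes numbered 5 with array weights, 0 to 1 without 1 array and 0 in each other fit. Calls among the 59 pathway genes numbered 3 with array weights, 2 among probes above background on all arrays, 1 to 2 without 1 array, and 0 within slide rows 1 and 2, without the Rag1 arrays and with the brown adipocyte covariate (limma; 2, 2, 4 and 4 at an unadjusted p under 0.05). Calls over all probes numbered 419 in the fit reported, 96 without a filter, 46 with slide row as a block, 2053 with array weights, 9 and 144 with the brown and white adipocyte covariates, 0, 1 and 0 within slide rows 1 and 2 and without the Rag1 arrays (2111, 1390 and 2294 at an unadjusted p under 0.05), and 101 (without Fto -/- replicate 4) to 886 (without Fto +/+ replicate 4). With the replicate block 132 probes were called, and 0 of the 15; of the 4 numbers, 1 had its own number as best match. Fto differed by -2.66 without the Rag1 arrays and by -3.02 and -3.33 within slide rows 1 and 2, and missed the threshold there (adjusted p 0.129, 0.154 and 0.32), each a fit with 1 array in a genotype. Normexp on mean signals was not run. Signal near background limits Ppp1r12b.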
